A study of Mus musculus with 6 samples.

Results

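The genes that carry glucose into the cell, break it down to pyruvate and lactate, and pass pyruvate on to the mitochondrion were followed across 6 RNA-seq libraries of infarcted mouse heart, together with a pair of genes of the oxygen-sensing system. The 33 genes were taken from a fixed list of symbols. No measured value entered the rule, but the list was drawn up with earlier results of these data known. All 33 were found by symbol among the 17524 genes of the deposited table. Of these, 32 passed the filter on low counts, out of 13565 genes that did. The one that did not was Aldoc, an aldolase best known from brain, with 2 to 10 counts per library.

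Glycolysis splits glucose into pyruvate and yields ATP without oxygen. Many of its steps are catalysed by alternative enzymes from separate genes, one typical of muscle and others typical of stromal, immune or proliferating cells. The adult heart lives mainly on fatty acids and oxidises most of the pyruvate it makes. Hypoxia-inducible factor (HIF) is a transcription factor that is degraded while oxygen is present. When oxygen falls it binds a short core motif near genes for glucose transporters, glycolytic enzymes and lactate export, and raises their transcription. TFEB, the factor overexpressed in this study, is a regulator of lysosome and autophagy genes that binds the palindrome CACGTG.

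The study asked whether TFEB restrains the activation of cardiac fibroblasts. The 3 libraries labelled TFEB overexpression came from the line R26-LSL-TFEB [+/+]; Acta2-cre, in which Cre under the promoter of the smooth muscle actin gene removes a stop cassette in front of TFEB. The 3 controls carry the genotype label WT, so a TFEB effect and an effect of Cre or of the cassette itself cannot be told apart. Hearts of both groups had undergone ligation of the anterior descending branch of the left coronary artery. The sources used here give no age and no time after ligation. The labels name heart as tissue, yet also fibrocytes and primary fibroblasts. Genes of heart muscle were the more abundant: Tnnt2, cardiac troponin T, stood at 9487 to 11970 TPM per library, and Pdgfra, a receptor that marks fibroblasts, at 17.1 to 32.5 TPM. Other stromal genes lay well above Pdgfra. The fibroblast marker Dpt stood at 137 to 394 TPM, and the matrix genes Col1a1 and Postn at 48.55 to 870 and 45.8 to 2007 TPM. Libraries are named by their label numbers, 35, 36 and 37 for the controls and 34, 41 and 43 for TFEB, and values below follow that order. The labels do not say whether each library is a separate animal, and p-values therefore reflect only how these samples spread.

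Depth was even, from 12942486 to 14969275 estimated counts per library, a ratio of 1.16. Tfeb itself overlapped between the groups, at 34.4, 33.8 and 41.4 CPM in the controls and 45.4, 45.3 and 39.4 CPM in the libraries labelled TFEB overexpression (log2 fold change 0.25, SE 0.12, edgeR adjusted p = 0.9999). The sources used here do not say whether cassette transcripts count towards the mouse gene. CPM here is the count scaled by library total and TMM factor, and TPM the authors' value per transcript length, summed over the transcript models of a gene. Libraries also differed in RNA of matrix genes. The level of 16 matrix and myofibroblast markers, a mean log2 CPM relative to the 6-library mean, was 0.01, 1.03 and −1.49 in the controls and 1.83, 0.83 and −2.21 in TFEB. Their summed CPM ran from 3220 to 15630 in the controls and from 2414 to 26000 in TFEB, and no marker of the list was at 0 in any library. Summed CPM of 17 cardiomyocyte markers ran the other way, 118200, 103900 and 134900 in the controls and 89300, 118200 and 148200 in TFEB. Their mean log2 level, the scale used for the matrix markers, was −0.04, 0.00 and 0.07 in the controls and −0.17, 0.17 and −0.03 in TFEB, with a Pearson r of −0.232 with the matrix level over the 6 libraries. Abundant genes weigh most in the sum, such as Myh6, the main adult myosin heavy chain, at 37280, 29430 and 44210 CPM in the controls and 23130, 35080 and 49160 CPM in TFEB. Among markers of other cells, the adipocyte list separated the groups: the summed CPM of its 5 genes was 14.5 to 217 in the controls and 0.127 to 9.23 in TFEB, with Adipoq, Cidec and Lep at 0 in at least 1 library. Acta2, whose promoter drives Cre, separated them the other way, at 100.3 to 138 CPM in the controls and 174 to 291 CPM in TFEB.

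The sequences below show where isoforms and candidate HIF and TFEB core motifs lie in members on which the results turn. Pkm, pyruvate kinase, makes its muscle form M1 and its embryonic, proliferative form M2 by using one or the other of a pair of neighbouring coding exons of 167 bases. They lie at chr9:59675029-59675195 (M1) and chr9:59675568-59675734 (M2), plus strand of mm10, cut from GENCODE M21 transcripts. Capitals mark the 64 positions at which the exons differ, the other 103 (61.7%) being identical.
Pkm M1 exon: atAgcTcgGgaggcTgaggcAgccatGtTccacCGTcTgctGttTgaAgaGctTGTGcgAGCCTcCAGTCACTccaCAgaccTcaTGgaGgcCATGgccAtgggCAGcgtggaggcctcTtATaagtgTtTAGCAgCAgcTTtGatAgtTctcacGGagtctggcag
Pkm M2 exon: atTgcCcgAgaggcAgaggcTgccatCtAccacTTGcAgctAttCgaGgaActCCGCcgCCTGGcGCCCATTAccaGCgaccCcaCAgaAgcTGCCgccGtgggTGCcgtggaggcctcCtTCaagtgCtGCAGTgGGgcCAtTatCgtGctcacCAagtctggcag
The exons share their ends and differ mainly in the middle, so reads can be assigned to one form only where they cover differing bases.

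Promoter windows, the 250 bases before an annotated start, came from the RefSeq table of build GRCm38.p6, which matched 31 of the 33 members with 51 windows. Slc2a3 and Slc2a4 had no window in it. A window of each of 5 members is shown because these genes followed the matrix markers (Pgam1), ran against them (Ldhb, Pdk2, Pdha1) or were low in 1 control (Egln3). Capitals mark the HIF core motifs ACGTG and GCGTG, searched on both strands, so that CACGT and CACGC are the same motifs read on the other strand. The palindrome CACGTG holds ACGTG on both strands and counts as both.
Pgam1, chr19:41911621-41911870, plus strand: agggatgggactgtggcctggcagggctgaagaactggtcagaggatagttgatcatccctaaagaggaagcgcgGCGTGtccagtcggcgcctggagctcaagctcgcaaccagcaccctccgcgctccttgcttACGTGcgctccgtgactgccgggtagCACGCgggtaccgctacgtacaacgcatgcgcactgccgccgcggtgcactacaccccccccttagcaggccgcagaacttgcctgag
Ldhb, chr6:142507958-142508207, minus strand: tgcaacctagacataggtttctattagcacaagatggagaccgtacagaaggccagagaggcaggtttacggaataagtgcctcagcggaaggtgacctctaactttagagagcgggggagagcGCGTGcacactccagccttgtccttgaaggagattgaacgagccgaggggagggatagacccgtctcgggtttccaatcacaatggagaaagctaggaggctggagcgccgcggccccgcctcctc
Pdk2, chr11:95041372-95041621, minus strand: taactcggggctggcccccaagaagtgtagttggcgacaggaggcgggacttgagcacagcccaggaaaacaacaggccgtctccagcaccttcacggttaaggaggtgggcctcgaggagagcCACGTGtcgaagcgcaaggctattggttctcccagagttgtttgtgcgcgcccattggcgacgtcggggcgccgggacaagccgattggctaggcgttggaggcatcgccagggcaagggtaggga
Pdha1, chrX:160138431-160138680, minus strand: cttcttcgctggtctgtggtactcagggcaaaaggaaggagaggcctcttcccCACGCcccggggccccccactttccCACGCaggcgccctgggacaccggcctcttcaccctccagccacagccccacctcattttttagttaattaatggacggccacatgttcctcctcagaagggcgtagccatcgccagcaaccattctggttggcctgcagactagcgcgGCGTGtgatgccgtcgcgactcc
Egln3, chr12:54203875-54204124, minus strand: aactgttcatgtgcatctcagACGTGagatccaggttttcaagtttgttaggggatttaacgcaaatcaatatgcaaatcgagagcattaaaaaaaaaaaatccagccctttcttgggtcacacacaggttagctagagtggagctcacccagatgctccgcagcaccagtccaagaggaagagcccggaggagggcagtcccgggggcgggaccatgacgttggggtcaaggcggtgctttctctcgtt
In these windows the motif was found 3 times for Pgam1, 1 time for Ldhb, 2 times for Pdk2 (both in 1 CACGTG), 3 times for Pdha1 and 1 time for Egln3. Pdk2 has a further window, chr11:95040876-95041125, which is not shown and held the motif 0 times. Over all members, 38 of 51 windows (74.5%) held ACGTG or GCGTG, against 38.6% of the 32851 windows of all genes. Windows of the same gene can overlap and hold the same site, as for Eno1, Aldoa and Pfkm. They are therefore not independent, and no share per gene was computed. CACGTG stood in 7 member windows (13.7%), those of Pfkm, Pfkfb2, Pfkfb3, Ldha, Slc16a1, Pdk2 and Hif1a, against 6.02% of all windows. A match says only that the letters are present. The list was made of kinds of genes that include known HIF targets, and the windows of all genes were not matched to it for base composition. The shares are therefore no test of enrichment.

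Between the groups, no gene of the set changed by the test. The edgeR quasi-likelihood fit with Benjamini-Hochberg adjustment over 13565 genes called 0 of the 32 tested members and 0 of all genes (0.0%). At an unadjusted p under 0.05 it found 1 member, Slc2a3, against 164 of all genes (1.21%). DESeq2 called 0 members and 1 gene in all, and at its unadjusted p under 0.05 found 2 members, Hk1 and Slc2a3, and 262 genes. It was run without the filter on low counts, so 13565 is not its base. No share of all genes was computed for it, and the 2 members cannot be set against one. Limma-trend on log2(TPM + 1) called 0 genes. The lowest adjusted p of a member was 0.9999 by edgeR and 0.9998 by DESeq2. Members with a higher value in TFEB numbered 19 and those with a lower value 13, with a median log2 fold change of 0.059, beside 51.0% higher and a median of 0.003 over all tested genes. Without control 35 the count with a higher value was 12 and the median −0.026, and without TFEB 43 they were 14 and −0.032. Groups did not overlap for 1 member on the higher side (Hk1) and 1 on the lower side (Slc2a3), against 304 (2.24%) and 341 (2.51%) of all genes. For 29 of the 32 members the 95% interval of the ratio lay between 0.5 and 2, and for Pfkp, Pfkfb1 and Slc16a3 it reached beyond. Summed over all 33 members, the set took 2.01%, 2.27% and 2.36% of TPM in the controls and 2.11%, 2.22% and 2.40% in TFEB, so the groups overlapped.

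**Figure D1:**
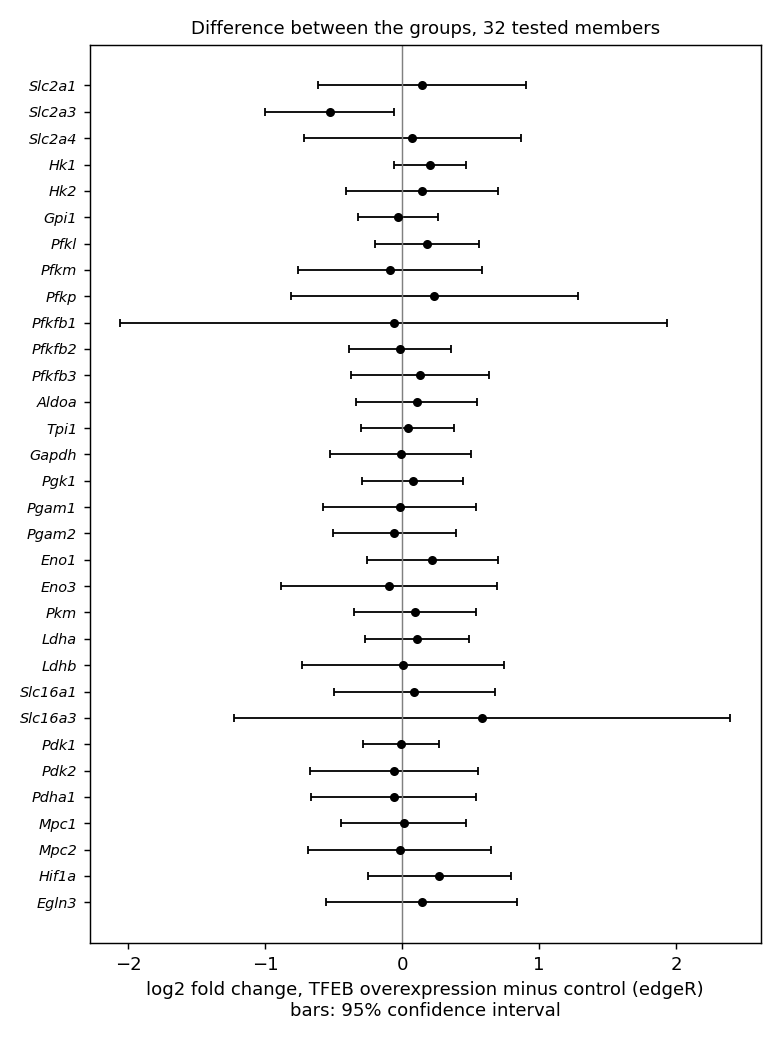
Log2 fold change of each tested member, TFEB overexpression minus control, from the edgeR fit (points) with its 95% confidence interval (bars). Slc2a3 is the member whose interval does not reach 0, from −0.997 to −0.055, and the intervals of Pfkfb1 and Slc16a3 are wide, since their libraries differed by 7.43 and 8.34 times.

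Glucose enters the cell through the GLUT transporters. Slc2a4, the insulin-responsive GLUT4 of muscle and fat, was the more abundant at a mean of 250 TPM, beside 17.0 TPM for Slc2a1, the ubiquitous GLUT1 that HIF is known to induce, and 2.15 TPM for Slc2a3, the high-affinity GLUT3 of neurons and leukocytes. Slc2a3 (chr6:122727809-122802363) stood at 6.04, 4.84 and 6.53 CPM in the controls and 4.33, 4.03 and 3.72 CPM in TFEB. Every TFEB library lay below every control, on 45 to 90 counts per library. Its ratio was 0.694 (interval 0.501 to 0.963), or −0.53 in log2 (SE 0.20), with an edgeR adjusted p of 0.9999. Levels of the neutrophil list, at 5.37 to 12.7 summed CPM, and of the macrophage list, at 561 to 1716, overlapped between the groups, while the adipocyte list separated them in the same direction as Slc2a3; the part of these cells in the Slc2a3 values was not tested. In bulk tissue, fewer cells of a type and less RNA per cell cannot be told apart.

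The other transporters spread more within the groups than between them. Slc2a4 read 345, 326 and 456 CPM in the controls and 239, 370 and 579 CPM in TFEB, with TFEB 34 and TFEB 43 at the ends (log2 fold change 0.076, SE 0.33). Slc2a1 had these ends exchanged, at 21.5, 27.0 and 18.2 CPM in the controls and 36.5, 21.1 and 16.3 CPM in TFEB (0.15, SE 0.32). Thus the library richest in GLUT4 message had the lowest GLUT1 message, and the reverse.

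Hexokinase traps glucose as glucose 6-phosphate. Hk1, the constitutive form, and Hk2, the insulin-responsive form of muscle, were present at similar levels, with means of 127 and 108 TPM. Hk1 (chr10:62268855-62379920) stood at 245, 274 and 268 CPM in the controls and 309, 314 and 284 CPM in TFEB, so that all 3 TFEB libraries lay above all controls by a small margin. Its ratio was 1.15 (interval 0.962 to 1.38), or 0.21 in log2 (SE 0.11), and it did not pass the edgeR test (adjusted p = 0.9999). Acta2 and the adipocyte list also separated these groups, and their part in the Hk1 values was not tested. Hk2 overlapped, at 265, 346 and 360 CPM in the controls and 264, 354 and 455 CPM in TFEB (0.15, SE 0.23). Gpi1, the isomerase that follows, was nearly flat, with libraries between 637 and 687 CPM and a log2 fold change of −0.031 (SE 0.12).

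Phosphofructokinase is the committed step of glycolysis and has a muscle (Pfkm), a liver (Pfkl) and a platelet (Pfkp) gene. Pfkm led with a mean of 778 TPM, against 70.2 TPM for Pfkl and 61.1 TPM for Pfkp. Pfkm read 1209, 1096 and 1553 CPM in the controls and 847, 1164 and 1618 CPM in TFEB (log2 fold change −0.088, SE 0.28). Pfkp read 71.6, 159 and 80.8 CPM in the controls and 185, 111 and 71.3 CPM in TFEB (0.24, SE 0.43). The muscle and platelet forms thus took opposite ends in TFEB 34 and TFEB 43, and neither separated the groups. Pfkl lay at 112, 159 and 147 CPM and at 165, 141 and 166.5 CPM (0.18, SE 0.16), with control 35 apart on the low side.

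The bifunctional PFKFB enzymes set the level of fructose 2,6-bisphosphate, the activator of phosphofructokinase. Pfkfb2, the heart form, had a mean of 44.8 TPM, and the liver and muscle form Pfkfb1 and the hypoxia-inducible form Pfkfb3 had 10.1 and 8.79 TPM. Pfkfb1 had a 7.43-fold range over the libraries, at 8.99, 4.49 and 16.8 CPM in the controls and 2.93, 4.54 and 21.7 CPM in TFEB, on 46 to 263 counts. Both groups covered most of that range, and the log2 fold change of −0.061 carried an SE of 0.83. Without TFEB 34 it was 0.38, without control 37 it was 0.52, and without TFEB 43 it was −1.43. Pfkfb3 read 21.0, 26.3 and 17.0 CPM in the controls and 28.4, 22.3 and 19.6 CPM in TFEB (0.13, SE 0.21). Pfkfb2 read 140, 176 and 124 CPM and then 145, 156 and 134 CPM (−0.015, SE 0.15), the TFEB libraries falling inside the controls.

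The most abundant members lay at steps from aldolase downward. Not all genes of these steps were abundant: Pgam1 and Eno1, with means of 109 and 204.5 TPM, lay below Gpi1 at 421 TPM. Gapdh, the dehydrogenase that yields NADH and is often used as a reference gene, had a mean of 6013 TPM, and Aldoa, the muscle aldolase, and Eno3, the muscle enolase, had means of 2924 and 1482 TPM. Gapdh has many processed copies in the mouse genome, and Pgam1, Eno1 and Ldha have some too; the sources used here do not say how the authors' quantification divided such reads, and these levels are uncertain to that extent. Gapdh read 3701, 4259 and 4750 CPM in the controls and 4105, 4063 and 4452 CPM in TFEB (log2 fold change −0.010, SE 0.21). Aldoa read 1909, 2172 and 2293 CPM in the controls and 2073, 2289 and 2498 CPM in TFEB (0.11, SE 0.18). Tpi1, triose phosphate isomerase, ran only from 559 to 693 CPM (0.042, SE 0.14), and Pgk1, the first ATP-forming kinase, from 447 to 587 CPM (0.077, SE 0.15). In each of these 4 genes control 35 was the lowest library.

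Phosphoglycerate mutase and enolase each pair a muscle gene with a widely expressed one. Pgam1, the widely expressed mutase (chr19:41911871-41918665), read 95.1, 119 and 94.7 CPM in the controls and 130, 104 and 70.4 CPM in TFEB (log2 fold change −0.018, SE 0.23). Pgam2, its muscle partner, read 394, 337 and 405 CPM in the controls and 282, 378 and 433 CPM in TFEB (−0.057, SE 0.19). TFEB 34 was thus highest for one and lowest for the other, and TFEB 43 the opposite. Eno1, the widely expressed enolase, repeated the first pattern at its high end, with 151, 210 and 150 CPM in the controls and 239, 190 and 166 CPM in TFEB (0.22, SE 0.20). Eno3 read 1043, 985 and 1533 CPM in the controls and 685, 1174 and 1473 CPM in TFEB (−0.096, SE 0.33), with TFEB 34 the lowest.

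Pyruvate kinase closes the pathway. Pkm as a gene read 1106, 1267 and 1455 CPM in the controls and 1247, 1282 and 1561 CPM in TFEB (log2 fold change 0.096, SE 0.19). The transcript model with the M1 exon printed above took 91.5%, 88.8% and 94.9% of Pkm TPM in the controls and 84.4%, 90.0% and 95.5% in TFEB. The model with the M2 exon took 7.92%, 10.9% and 4.90% in the controls and 14.7%, 9.59% and 3.90% in TFEB. M1 therefore led in every library, and TPM of the M2 model was 3.56 times as high in TFEB 34 as in TFEB 43, a pair of libraries with the same label. Group means of the M2 model were 84.2 ± 34.6 TPM in the controls and 106 ± 60.4 TPM in TFEB (SD, n = 3 each), which overlap. From lowest to highest M2 share, the libraries stood in the same order as from lowest to highest matrix marker level.

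Lactate dehydrogenase turns pyruvate into lactate and back, with Ldhb the heart subunit and Ldha the subunit of glycolytic muscle and hypoxic cells. Ldhb had a mean of 1987 TPM and Ldha 913 TPM. Ldhb (chr6:142490249-142507957) read 1123, 1097 and 1542 CPM in the controls and 848, 1175 and 1762 CPM in TFEB (log2 fold change 0.009, SE 0.31). Ldha read 603, 770.3 and 798 CPM in the controls and 782, 759 and 801 CPM in TFEB (0.11, SE 0.16). Control 35 stood below the other 5 libraries, which lay within 759 to 801 CPM. The lactate carriers lay farther apart: Slc16a1, encoding MCT1, the importer of oxidative tissue, had a mean of 113 TPM, and Slc16a3, encoding MCT4, the HIF-inducible exporter, 5.52 TPM. Slc16a3 (chr11:120948484-120959000) read 4.77, 9.62 and 2.96 CPM in the controls and 15.8, 8.13 and 1.90 CPM in TFEB, on 23 to 249 counts. Its extremes were both TFEB libraries, and the log2 fold change of 0.58 (SE 0.75) turned to −0.20 without TFEB 34. Slc16a1 read 235, 264 and 344 CPM in the controls and 210, 324 and 363 CPM in TFEB (0.091, SE 0.25).

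Pyruvate enters mitochondria through the carrier MPC, a complex of Mpc1 and Mpc2, and is oxidised by pyruvate dehydrogenase, whose catalytic subunit is Pdha1 and whose inhibitory kinases include Pdk1 and Pdk2. Pdha1, Mpc1 and Mpc2 had means of 944, 884 and 795 TPM, within the range of the glycolytic enzymes. Pdha1 (chrX:160122219-160138430) read 1454, 1391 and 1752 CPM in the controls and 1083, 1417 and 1904 CPM in TFEB (log2 fold change −0.062, SE 0.25). Pdk2 (chr11:95026258-95041371) read 402, 341 and 486 CPM in the controls and 284.5, 374 and 523 CPM in TFEB (−0.056, SE 0.25). Mpc1 and Mpc2 had log2 fold changes of 0.013 (SE 0.19) and −0.016 (SE 0.28). All 4 of these genes were lowest in TFEB 34 and highest in TFEB 43. Pdk1, the HIF-inducible kinase, did not share that order: it lay between 213 and 250 CPM in all libraries, with a log2 fold change of −0.008 (SE 0.12).

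Hif1a encodes the oxygen-regulated subunit of HIF, and Egln3 (also called PHD3) is a prolyl hydroxylase that marks that subunit for degradation and is itself a HIF target. HIF is controlled mainly through protein stability, which RNA does not measure. Hif1a (chr12:73901324-73947554) read 133, 184 and 121 CPM in the controls and 213, 174 and 142 CPM in TFEB (log2 fold change 0.27, SE 0.22). Egln3 (chr12:54178981-54203874) read 37.8, 85.2 and 78.2 CPM in the controls and 75.7, 70.4 and 76.2 CPM in TFEB. The other 5 libraries lay close together and control 35 stood alone below them. The log2 fold change of 0.14 (SE 0.29) became −0.14 without that library.

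**Figure D2:**
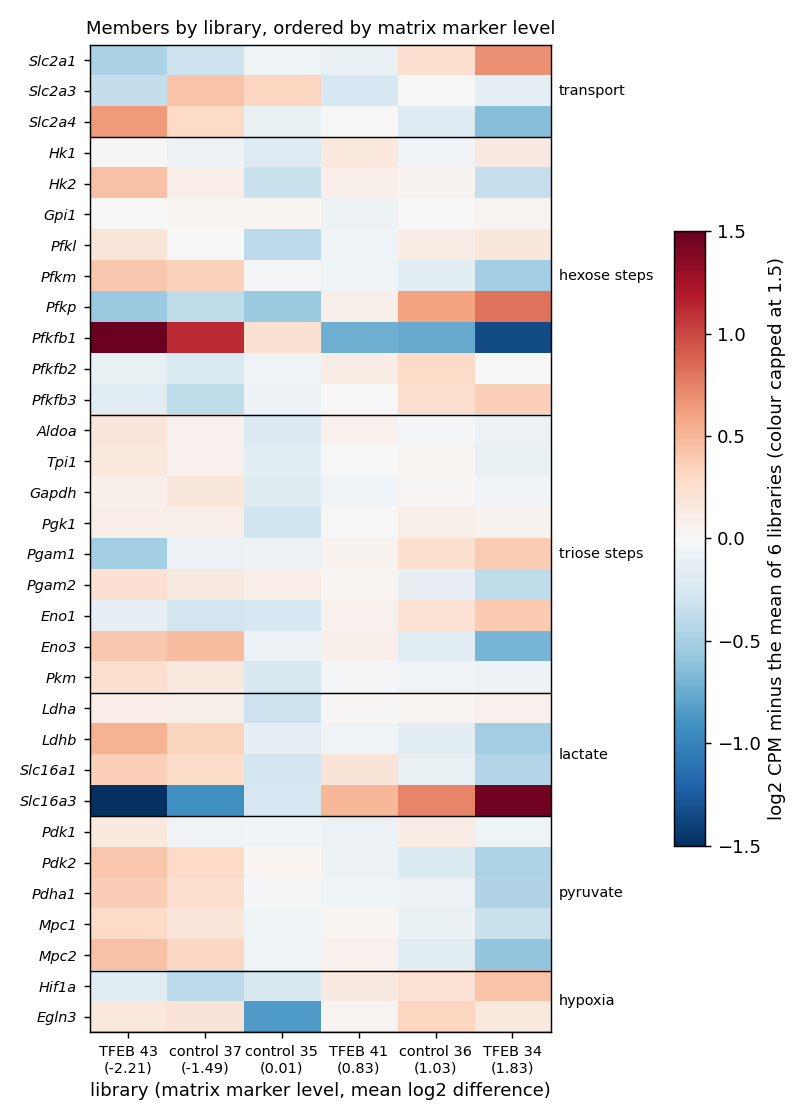
Log2 CPM of the 32 tested members in each library relative to the mean of the 6 libraries, rows ordered by role and columns by the matrix marker level given under each library. Slc2a4, Pfkm, Pfkfb1, Eno3, Ldhb, Pdk2, Pdha1 and the carriers pass from above the mean (red) at the left to below it (blue) at the right, Slc2a1, Pfkp, Pgam1 and Slc16a3 the other way, and control 35 is low for Egln3 and Ldha.

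The members thus varied mainly from library to library. The highest library stood a median of 1.72 times above the lowest, by over 1.5 times in 21 members and by over 2 times in 9, namely Slc2a1, Slc2a4, Pfkp, Pfkfb1, Eno3, Ldhb, Slc16a3, Mpc2 and Egln3. Gpi1, Pdk1 and Tpi1 had the narrowest ranges, of 1.08, 1.17 and 1.24 times. Such ranges were not computed over all tested genes, so these counts do not show whether the members spread more than other genes. The ends were often 2 libraries of the same label: TFEB 43 was highest for 17 members and lowest for 5, and TFEB 34 was lowest for 12 and highest for 8. Control 35 was lowest for 9 members, Hk1, Pfkl, Aldoa, Tpi1, Gapdh, Pgk1, Pkm, Ldha and Egln3, and highest for 0.

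Several members followed the matrix marker level. Over the 6 libraries each tested gene's log2 CPM was correlated with that level, with exact two-sided permutation p-values (720 orders) adjusted over all 13565 genes. A large part of the transcriptome followed it: at an unadjusted p under 0.05, 18.0% of all genes rose with the level and 16.4% fell with it. With no test applied, 9 members (28.1%) had an r above 0, against 50.1% of all genes. Among the 32 members 6 (18.8%) rose with it, a share near that of all genes, and 10 (31.3%) fell with it. After adjustment 2 members (6.25%) rose with it, a share near the 5.16% of all genes. On the falling side 6 (18.75%) passed, against 3.29%. The points share their library, and CPM values are shares of one total.

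The 6 members on the falling side included the muscle forms Slc2a4 and Pfkm and the heart form Ldhb, and the 2 on the rising side were Slc16a3 and Pgam1. Other muscle forms did not pass by Pearson's r, among them Hk2 (r = −0.706), Aldoa (−0.596) and Eno3 (−0.893). The heart form Pfkfb2 had an r of 0.698 and did not pass either. Pfkfb1 had a Pearson r of −0.993 and a Spearman rho of −1 (exact permutation p of 0.00139 and 0.00278, the smallest these tests can give, adjusted p of 0.0410 and 0.0406). Pdk2 (r = −0.980), Pfkm (−0.966) and Pdha1 (−0.958) had the same rho, exact p and adjusted p. Ldhb (r = −0.964) and Slc2a4 (−0.946) had an exact p of 0.00417 and an adjusted p of 0.0493, and a rho of −0.943 whose adjusted exact permutation p was 0.0852. On the rising side Slc16a3 had r = 0.990 and rho = 1 (exact p of 0.00139 and 0.00278, adjusted 0.0410 and 0.0406), and Pgam1 r = 0.926 and rho = 1 (exact p of 0.00417 and 0.00278, adjusted 0.0493 and 0.0406). By Spearman's rho 2 members (6.25%) passed on the rising side, against 3.96% of all genes, and 5 (15.6%) on the falling side, against 2.89%. These 5 were Pfkm, Pfkfb1, Pdk2, Pdha1 and, in addition, Pgam2 (−1, adjusted exact p = 0.0406). Without TFEB 43 and control 37, the libraries farthest from the median level, r kept its sign in the 8 members that passed by Pearson's r. Its size there was between 0.792 and 0.999. A rho of 1 or −1 fixes that sign in advance, so it could have changed only for Ldhb and Slc2a4. The 8 were also picked by the same correlation, so the kept sign is no separate test. Both groups lie along the same order, with TFEB libraries at either end, and within a group there are too few libraries for a correlation.

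Other members did not pass after adjustment. Slc2a1 (r = 0.903, exact p = 0.0125, adjusted 0.0721) and Hif1a (r = 0.839, exact p = 0.0403, adjusted 0.127) had an unadjusted exact p under 0.05 and missed the threshold after adjustment. By Pearson's r the same held for Pfkp (0.848) and Pfkfb3 (0.879) on the rising side. On the falling side it held for Mpc1 (−0.932), Mpc2 (−0.917), Eno3 (−0.893) and Pgam2 (−0.874), of which Pgam2 passed by rho. Ldha (r = −0.147, exact p = 0.833), Egln3 (−0.003, exact p = 0.996), Pgk1 (−0.115, exact p = 0.875) and Hk1 (0.394, exact p = 0.431) had no p under 0.05 before adjustment, at a number of libraries that limits the precision of r. With the level of the cardiomyocyte list, in which some markers rise in stressed muscle while others fall, 0 members passed, and 0 at an unadjusted p under 0.05, where 1.34% of all genes rose and 0.995% fell with it. Of the members 22 (68.75%) had an r above 0 with that list, against 49.1% of all genes.

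**Figure D3:**
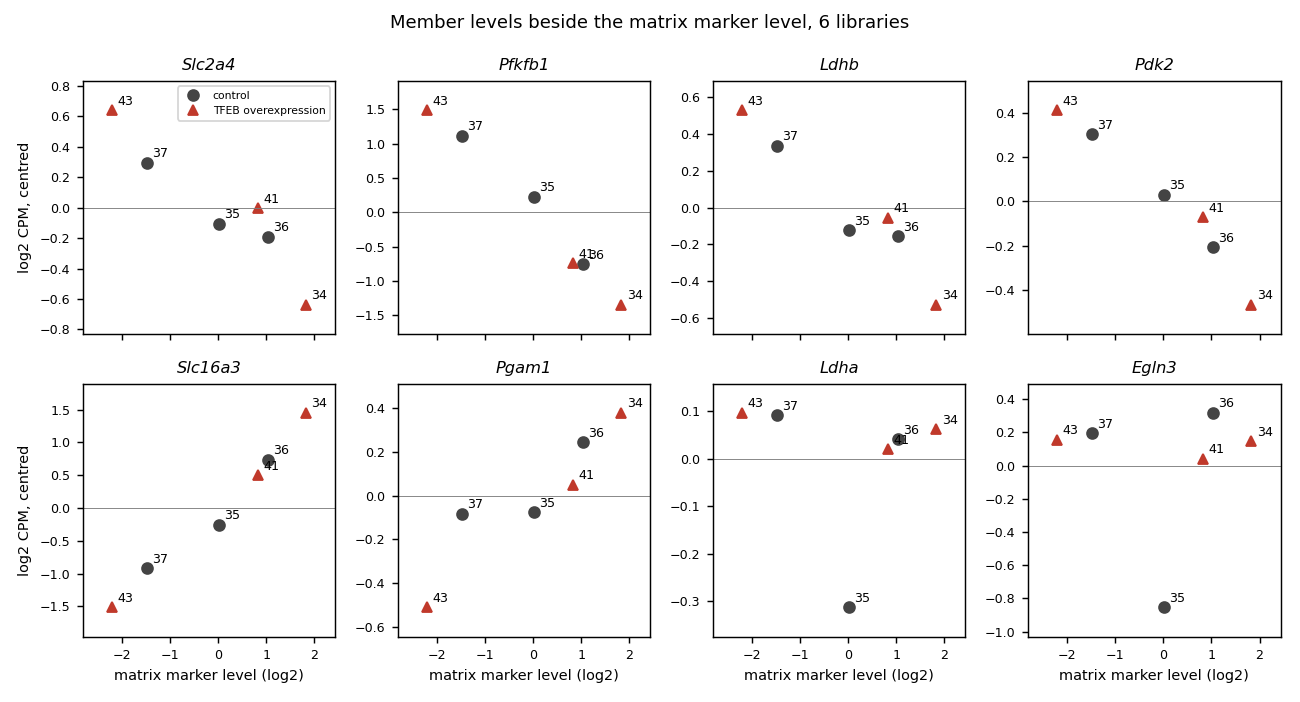
Log2 CPM of 8 members relative to their 6-library mean (vertical axes) against the matrix marker level of the library (horizontal axes), controls as circles and TFEB overexpression as triangles, numbered by library. Slc2a4, Pfkfb1, Ldhb and Pdk2 descend from TFEB 43 to TFEB 34, Slc16a3 and Pgam1 ascend, and Ldha and Egln3 are level apart from control 35.

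Shares of a family's summed TPM show the same exchange of forms in several families, though not in the aldolases. An exact permutation test of 3 against 3 libraries cannot give a two-sided p below 0.1, and after adjustment over the 9 families each p was 1.00. Slc2a4 took 92.9 ± 2.03% of the 3 GLUT genes in the controls and 91.7 ± 6.11% in TFEB (SD, n = 3 each). Ldha took 28.9%, 34.8% and 28.2% of lactate dehydrogenase TPM in the controls and 41.2%, 32.9% and 25.6% in TFEB. Eno3 took 89.2%, 84.8% and 92.4% of enolase TPM in the controls and 77.2%, 88.0% and 91.3% in TFEB. In each case TFEB 34 held more of the widely expressed form than any control, and TFEB 41 and TFEB 43 did not. Pfkm ranged from 75.1% to 89.8% of phosphofructokinase TPM, Pgam2 from 84.2% to 93.8% of mutase TPM and Hk2 from 37.7% to 53.4% of hexokinase TPM. Slc16a3 ranged from 0.978% to 12.4% of the MCT pair. For Aldoc the share of aldolase TPM stayed at or under 0.0181%. Without TFEB 34 the mean difference changed sign for all of these shares, from −3.28 to 0.874 percentage points for Eno3 and from 2.63 to −1.35 for Ldha.

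**Figure D4:**
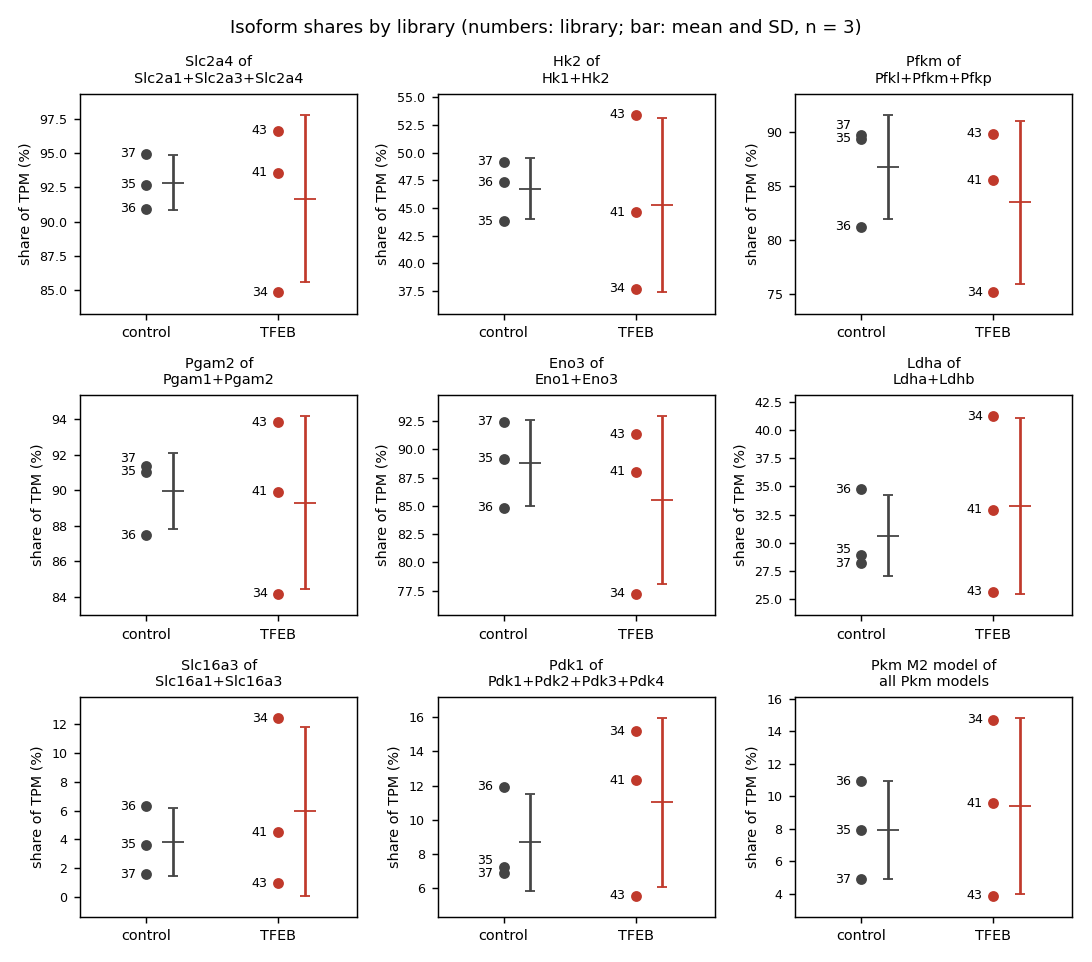
Share of the summed TPM of an enzyme or transporter family taken by 1 gene, or of Pkm TPM taken by the M2 model, in percent, for each library (points, numbered) with the group mean and SD (n = 3). TFEB 34 and TFEB 43 stand at or near opposite ends in every panel, and the controls fall between 81.2% and 89.8% for Pfkm and between 28.2% and 34.8% for Ldha.

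Pyruvate dehydrogenase kinase shares turned on Pdk4, the kinase induced by fasting and fatty acids, which is not among the 33 genes and was chosen after its values were seen. Pdk4 read 1170, 616 and 1132 CPM in the controls and 314, 374 and 1910 CPM in TFEB (log2 fold change −0.17, SE 0.73). Pdk1 took 7.22%, 11.9% and 6.85% of the TPM of the 4 kinases in the controls and 15.2%, 12.3% and 5.55% in TFEB. Pdk1 itself was nearly flat, and its share was high in the libraries with low Pdk4.

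Neighbouring pathways gave no called gene either, by edgeR, in either direction. Of 16 tested further genes of glycolysis and glucose transport, 8 had a higher value (median log2 fold change −0.005), with Hk3, the hexokinase of white blood cells, at 0.595 (SE 0.32) and Eno2, the neuronal enolase, at −0.427 (SE 0.58). Among pyruvate dehydrogenase genes Pcx stood at −0.124 (SE 0.22) and Pdk3 at −0.203 (SE 0.39). Of the 10 tested, 3 had a higher value (median −0.041), among them the phosphatase gene Pdp2 at 0.134 (SE 0.42). Of 15 glycogen genes 4 did (median −0.070), with the glycogen synthase gene Gys1 at −0.133 (SE 0.19) and Phkg1 at −0.789 (SE 0.84). Of 10 genes of the NADH shuttles, which carry reducing power from glycolysis into mitochondria, 1 did (median −0.068), and Gpd1 stood at −0.146 (SE 0.21). Over all tested genes 51.0% had a higher value and the median was 0.003. The 7 pentose phosphate genes had 5 on the higher side (median 0.105), including Pgls at 0.148 (SE 0.081) and Taldo1 at 0.105 (SE 0.089). Rpe, on the lower side, stood at −0.185 (SE 0.16).

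Regulators and targets of hypoxia were mixed. Of 11 regulators 6 had a higher value (median log2 fold change 0.027), with Vhl, the ligase subunit that recognises hydroxylated HIF, at 0.160 (SE 0.14). Arnt2, a HIF partner subunit best known from brain, stood at −0.903 (SE 0.53) on 9 to 53 counts, and Siah2 at −0.372 (SE 0.23). Epas1, encoding HIF-2 alpha, and Egln1, the main HIF hydroxylase, both chosen after their values were seen, stood at 0.043 (SE 0.19) and 0.027 (SE 0.21). Of 22 tested HIF targets outside the 33 genes 14 had a higher value (median 0.1), against 51.0% of all tested genes. An unadjusted edgeR p under 0.05 was found for 2 of them, in opposite directions, against 1.21% of all tested genes. Ddit4, a stress-induced inhibitor of mTORC1, read 74.7, 65.4 and 73.1 CPM in the controls and 38.9, 26.0 and 20.3 CPM in TFEB (−1.32, SE 0.24, edgeR adjusted p = 0.9999), and was the single gene that DESeq2 called. Tfrc, the transferrin receptor, read 45.4, 80.7 and 77.3 CPM in the controls and 73.4, 167 and 285 CPM in TFEB (1.37, SE 0.49), with overlap. Insulin and energy signalling to glucose uptake had 5 of 16 genes on the higher side (median −0.043). Its member farthest from 0, Tbc1d1, a Rab regulator of GLUT4 traffic, stood at −1.24 (SE 0.64), with control 35 at 161 CPM and the other 5 libraries between 29.0 and 39.0 CPM.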

How the data were processed

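Per the submitters' processing notes, the tools were RSEM 1.3.1, HISAT2 2.1.0, DESeq2 1.4.5 and Bowtie2 2.3.4.3 on build mm10, with no role given for each. The authors deposited 1 table of 62498 transcripts with an estimated count, a TPM and an FPKM per library, per the file headers. The 6 normalised read count columns held no values and were not used. The sources used here give neither strand setting nor annotation release, so reads of antisense or overlapping genes cannot be told apart.

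Estimated counts were summed per gene number and rounded to whole numbers (17524 genes, 117 without a symbol). Groups were compared with edgeR 4.0.16 under R 4.3.3 (TMM scaling, filterByExpr, two-sided quasi-likelihood test), adjusted by Benjamini-Hochberg over all tested genes and called under 0.05. Shares used TPM, with FPKM as an alternative. Correlations used exact permutation of 6 libraries and log2 CPM with a prior count of 2. They had been planned with adjustment over the members; adjustment over all tested genes, for each marker list, was used instead. Alternatives were DESeq2 1.42.0, limma 3.58.1 (log2(TPM + 1), values of at least 1 in 3 libraries) and those named in the closing section. The matrix level as a covariate was added after the data were seen. The fits and correlations were tested on simulated data. Each SE was the absolute log2 fold change divided by the square root of the edgeR F statistic, and the intervals follow from it. Such an SE rests on the variance model of that fit, which draws on other genes too. Each SD is the spread between libraries. No separate counting error was computed.

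The members and lists were chosen with earlier results of these data known. Named genes are all members, Tfeb, up to 3 genes with the smallest p and a mean of at least 1 CPM per neighbouring list, and the first genes of marker lists. Figures were drawn with matplotlib 3.10.9.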

Additional observations from a re-analysis of the deposited data

How the results depend on the processing

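No member was called under any setting tried, which were RLE scaling, DESeq2, all genes with a count, genes with at least 10 counts in 3 libraries, limma-trend on log2(TPM + 1), the cardiomyocyte level or the matrix level as a covariate, and each library left out in turn. The count of genes called was 0 in each of these except DESeq2, where it was 1. The count of members with a higher value ran from 12 (without control 35) to 25 (without control 37), beside 19 with all libraries. Sign changes with all libraries kept were few: limma-trend on log2(TPM + 1) gave 0.0182 for Pfkfb2, 0.00409 for Gapdh and −0.0304 for Ldhb, the cardiomyocyte level as a covariate gave 0.0203 for Pfkfb1 and 0.0164 for Mpc2, and the matrix level gave 0.0038 for Gapdh and 0.0135 for Mpc2. With 1 library left out, 26 of 32 members changed sign in at least 1 fit, and Aldoa, Eno1, Hif1a, Hk1, Pfkl and Slc2a3 did not. The lowest and highest log2 fold changes over these 6 fits were, for members, Slc2a1 (from −0.252 to 0.371), Slc2a4 (from −0.303 to 0.338), Hk2 (from −0.0657 to 0.322), Gpi1 (from −0.0575 to 0.0127), Pfkm (from −0.355 to 0.113), Pfkp (from −0.19 to 0.683), Pfkfb1 (from −1.43 to 0.519), Pfkfb2 (from −0.122 to 0.14), Pfkfb3 (from −0.0331 to 0.304), Tpi1 (from −0.0293 to 0.103), Gapdh (from −0.0988 to 0.0805), Pgk1 (from −0.0423 to 0.141), Pgam1 (from −0.239 to 0.187), Pgam2 (from −0.2 to 0.0974), Eno3 (from −0.353 to 0.157), Pkm (from −0.0131 to 0.201), Ldha (from −0.00612 to 0.186), Ldhb (from −0.31 to 0.228), Slc16a1 (from −0.0719 to 0.29), Slc16a3 (from −0.199 to 1.16), Pdk1 (from −0.0842 to 0.0506), Pdk2 (from −0.314 to 0.132), Pdha1 (from −0.294 to 0.116), Mpc1 (from −0.151 to 0.162), Mpc2 (from −0.273 to 0.218), Egln3 (from −0.141 to 0.355), and for other genes Eno2 (from −1.0 to 0.0117), Pcx (from −0.393 to 0.00189), Pdk3 (from −0.492 to 0.0952), Pdp2 (from −0.409 to 0.423), Gpd2 (from −0.18 to 0.0601), Slc25a12 (from −0.331 to 0.0782). Differences in share of family TPM, in percentage points, did so for Slc2a4 (from −3.648 to 2.242), Hk2 (from −5.594 to 2.247), Pfkm (from −6.454 to 0.8959), Aldoc (from −0.002403 to 0.004906), Pgam2 (from −2.925 to 1.911), Eno3 (from −6.184 to 0.874), Ldha (from −1.349 to 6.434), Slc16a3 (from −1.096 to 4.627). The cause of these changes was not tested. Members related to the matrix level numbered 8 under RLE scaling and 7 on log2(TPM + 1), beside 8. Correlations were not tested with a single library left out, since fewer than 6 would remain; r without the 2 libraries farthest from the median level stands beside the correlations above. No paired analysis was possible because the groups share no replicate numbers. Low counts limit Slc2a3, Pfkfb1, Slc16a3 and Aldoc.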
